A study of Mus musculus with 9 samples.

Results

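A set of 10 genes listed for the allantois and the extraembryonic mesoderm was followed at E9.5 in mouse embryos without SR-B1, a receptor for lipoproteins. Not all of them are markers particular to these tissues. They are *Tbx4*, *Hand1*, *Foxf1*, *Pitx1*, *Bmp4*, *Wnt2*, *Vcam1*, *Itga4*, *Postn* and *Ahnak*, taken by symbol, and all 10 were found among the 24357 genes of the deposited table. The 3 groups were KO-NTD embryos (SR-B1 KO with an open cephalic neural tube), KO-N embryos (SR-B1 KO with normal morphology) and WT embryos, all from crosses of SR-B1 heterozygous mice on a mixed C57Bl/6J x 129S2 background. KO embryos carry a constitutive null mutation of the receptor gene in every tissue, and the dams of all groups ate the same control chow. Each group was measured by poly-A RNA sequencing of 3 samples, each made from 3 whole female embryos by their label, dissected away from the yolk sacs and pooled.

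The allantois is a bud of extraembryonic mesoderm that grows from the posterior end of the embryo, fuses with the chorion and forms the umbilical vessels and the vascular part of the placenta. In mouse embryos, *Bmp4* signalling is required to form it, the T-box gene *Tbx4* and the adhesion pair made of *Vcam1* on the allantois and *Itga4* on the chorion are required for its fusion, and *Hand1* and *Foxf1* are required in the extraembryonic mesoderm. Several of these genes also act inside the embryo, *Tbx4* and *Pitx1* in the hindlimb bud and *Hand1* and *Foxf1* in the lateral plate. A level in a sample therefore sums whichever of these places the sample held. The yolk sacs were dissected away, and whether the allantois or the chorion stayed with the embryos was not stated.

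The deposited files hold 1 value a group, in FPKM (fragments per kilobase of a gene's transcript, corrected for how many fragments were mapped), combined by the authors from the 3 pools. The spread between pools cannot be seen, no test between pools was possible, and the files give no read counts behind the values. The error given here is the pair of confidence bounds that the authors deposited with each value, which for the 10 genes lay between 14.4% and 21.8% of the value on each side. KO-NTD and KO-N embryos and a column headed Control have bounds for every gene. WT values have none, and the files give them only for genes that the authors listed as different from WT, which include 6 of the 10. The Control column was not taken to be WT, since its values differ from those of WT, and which libraries it combines was not stated. *Scarb1*, the gene of SR-B1, was at 3.12 FPKM in KO-NTD embryos, 3.34 in KO-N and 17.1 in WT, and at 12.4 FPKM in the Control column. All 4 Y-linked genes examined were above 0, although the label of every pool reads female, between 1.58 and 5.69 FPKM in the KO groups and between 3.68 and 10.5 FPKM in WT embryos.

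Among the 10 genes, *Tbx4*, *Hand1* and *Foxf1* were higher in KO-NTD embryos than in KO-N with bounds that did not overlap. *Tbx4* was 1.91-fold, *Hand1* 1.44-fold and *Foxf1* 1.43-fold higher, and all encode transcription factors. *Wnt2* and *Ahnak* were higher by a smaller margin within overlapping bounds, and the other 5 lay between 0.972-fold (*Itga4*) and 1.09-fold (*Bmp4*). In this text a gene counts as higher or lower past the fold where its log2 fold change, computed on log2(FPKM + 0.1), is at least 0.4 in size. By this rule 3 of the 10 genes were higher, where 3.41% of all 13569 genes averaging 0.5 FPKM or more over the KO groups were. None of the 10 was lower, where 3.77% of all genes were. The bounds lay apart with KO-NTD higher in 3 of the 10 against 1.17% of all genes, and with KO-NTD lower in 0 against 1.13%. These shares do not test the set, since the 10 genes were chosen with earlier results of these data known. The median log2 fold change of the 10 genes was 0.22, that of all 13569 genes -0.02, and 9 of the 10 were above 0, as were 5663 of the 13569.

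**Figure D1:**
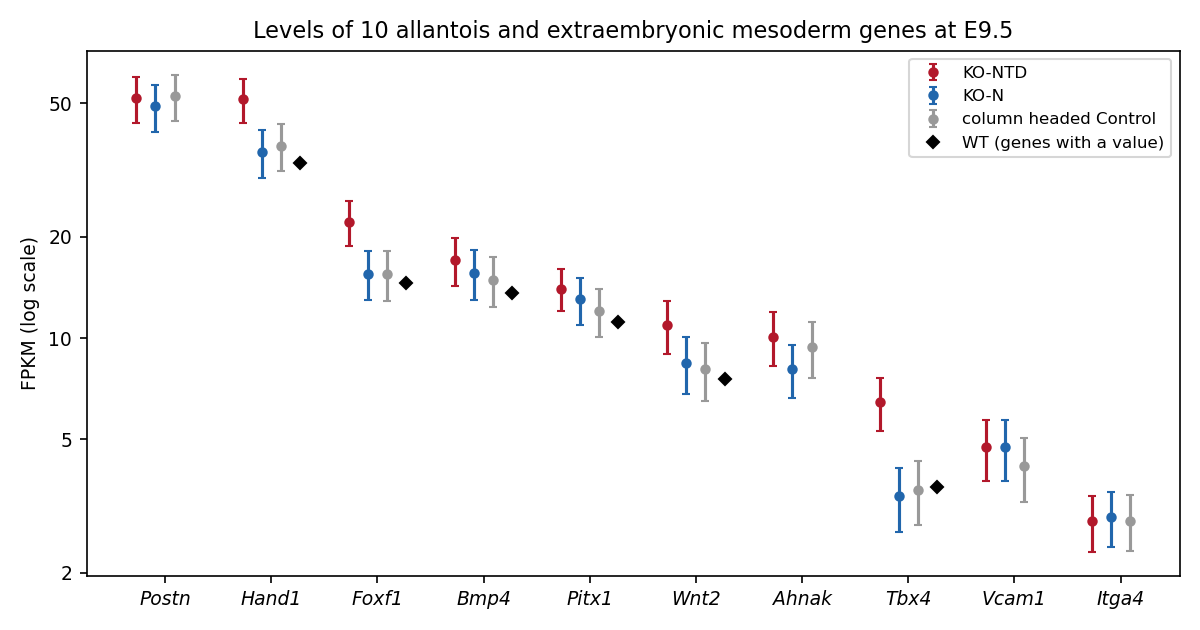
Level of each of the 10 genes in FPKM on a log axis, in KO-NTD (red), KO-N (blue), the column headed Control (grey) and, for the 6 genes that have a value, WT embryos (black diamonds). Bars are the authors' confidence bounds, and WT has none. *Tbx4*, *Hand1* and *Foxf1* are the genes whose KO-NTD bar lies wholly above the KO-N bar.

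The largest difference among the 10 was that of *Tbx4*, a T-box transcription factor gene of the allantois and the hindlimb (chromosome 11, 85890063 to 85916097 of mm10). It was at 6.45 FPKM in KO-NTD embryos, with bounds of 5.28 to 7.62 FPKM. In KO-N embryos it was at 3.38 FPKM, with bounds of 2.64 to 4.11 FPKM. The groups did not overlap, and the KO-N level lay close to the 3.60 FPKM of WT embryos and the 3.54 FPKM of the Control column. The log2 fold over KO-N was 0.91 with a 95% interval of 0.52 to 1.31, built from the bounds read as 2 standard deviations. Within the authors' table of KO-NTD and WT, *Tbx4* was at 6.46 FPKM in KO-NTD embryos and 3.60 FPKM in WT embryos, which is 0.83 on the log2 scale.

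Since *Tbx4* differed most and *Bmp4*, the signal gene required to form the allantois, differed little, the 250 bases before an annotated start of each are shown. They come from the RefSeq promoter table of GRCm38.p6, the same assembly as mm10, in which 6 of the 10 genes have an entry. The *Tbx4* window lies at chr11:85896515-85896764 on the plus strand, before the start of a shorter transcript and inside the span of the gene. The *Bmp4* window lies at chr14:46390670-46390919 on the minus strand. Capitals mark matches to CANNTG, the E-box bound by basic helix-loop-helix proteins such as that of *Hand1*.
Tbx4: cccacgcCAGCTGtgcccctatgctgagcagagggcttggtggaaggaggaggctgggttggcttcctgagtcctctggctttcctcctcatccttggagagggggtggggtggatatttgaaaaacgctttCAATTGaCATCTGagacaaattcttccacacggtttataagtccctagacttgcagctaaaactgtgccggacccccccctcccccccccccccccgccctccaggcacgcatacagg
Bmp4: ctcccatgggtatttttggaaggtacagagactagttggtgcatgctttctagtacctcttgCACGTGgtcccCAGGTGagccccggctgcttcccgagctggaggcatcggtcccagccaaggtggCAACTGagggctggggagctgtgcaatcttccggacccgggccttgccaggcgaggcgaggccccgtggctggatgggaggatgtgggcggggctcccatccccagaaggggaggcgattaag

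Each of these windows held 3 E-boxes, and 66.2% of all 32851 windows of this length in the table held at least 1. The share of windows with 3 was not counted. Of the other windows of the 10 genes, that of *Itga4* held 1 E-box and those of *Wnt2*, *Postn* and *Ahnak* held 0. Neither held GGTGTG, a core of T-box sites, which was in 16.3% of all windows on either strand. Neither held TAAACA, a core of forkhead sites (12.0% of all windows), or GGCGCC, a GC-rich element bound by Smad proteins (9.59% of all windows). The *Wnt2* window held 1 match to GGCGCC and the *Itga4* window 2 to GGTGTG. These are matches of letters and not sites of binding.

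*Hand1*, a basic helix-loop-helix gene of the extraembryonic mesoderm, trophoblast, heart and lateral plate (chromosome 11, 57828713 to 57832147), was at 51.4 FPKM in KO-NTD embryos (bounds 43.7 to 59.0). It was at 35.7 FPKM in KO-N embryos (bounds 29.9 to 41.5) and at 33.2 FPKM in WT embryos. The KO-NTD value stood above both others, which lay near each other. The log2 fold change over KO-N was 0.52 (95% interval 0.21 to 0.83), and that over WT was 0.63 within the authors' table, where KO-NTD was also at 51.4 FPKM.

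*Foxf1*, a forkhead gene of the extraembryonic and lateral plate mesoderm (chromosome 8, 121084386 to 121088154), had the same pattern. It was at 22.2 FPKM in KO-NTD embryos (bounds 18.8 to 25.7), against 15.6 FPKM in KO-N embryos (bounds 13.0 to 18.2) and 14.6 FPKM in WT embryos. The log2 fold change was 0.51 over KO-N (95% interval 0.19 to 0.83) and 0.60 over WT. The long noncoding RNA gene *Fendrr*, which is transcribed away from *Foxf1* with 1276 bases between the starts in the files and is known from the mouse lateral plate, was looked up after these values were seen. It was at 4.47 FPKM in KO-NTD embryos (bounds 3.54 to 5.41), against 2.81 FPKM in KO-N embryos (bounds 2.12 to 3.50) and 3.32 FPKM in WT embryos. Its log2 fold change over KO-N was 0.65 (95% interval 0.21 to 1.09).

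The fourth transcription factor gene, the homeobox gene *Pitx1* of the hindlimb and first pharyngeal arch (chromosome 13, 55825054 to 55831425), had overlapping bounds in the KO groups. It was at 14.0 FPKM in KO-NTD embryos (bounds 12.0 to 16.0), 13.0 FPKM in KO-N embryos (bounds 10.9 to 15.1) and 11.1 FPKM in WT embryos. The log2 fold over KO-N was 0.10 (95% interval -0.20 to 0.41), an interval that includes folds as large as 0.4 upwards. Over WT it was 0.33, with both KO groups above the WT value.

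**Figure D2:**
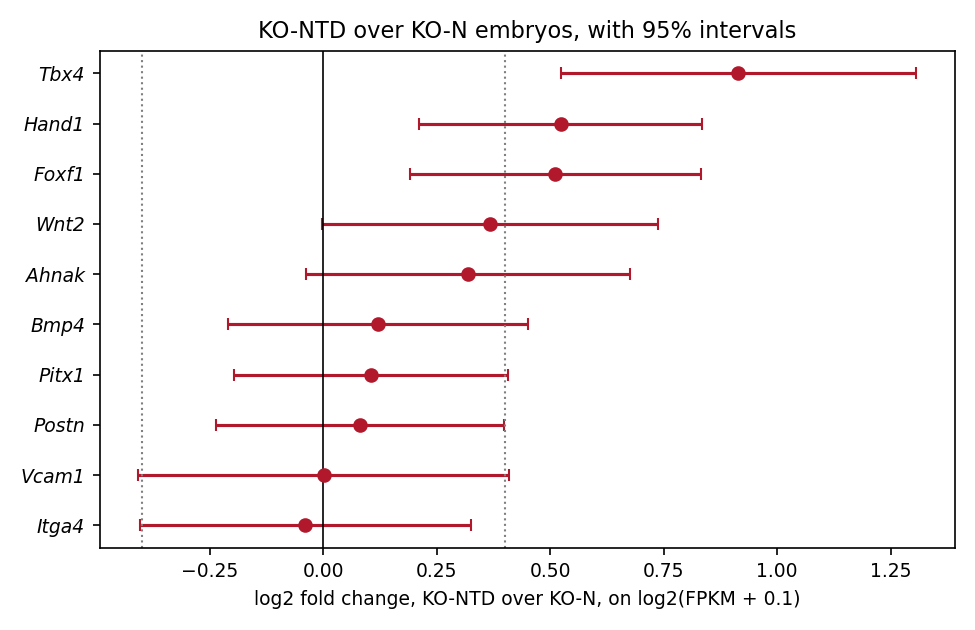
Log2 fold, KO-NTD embryos over KO-N, for each of the 10 genes, on log2(FPKM + 0.1), with 95% intervals built from the authors' bounds. Dotted lines stand at -0.4 and 0.4. The intervals of *Tbx4*, *Hand1* and *Foxf1* lie above 0, and that of *Wnt2* starts at -0.003.

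Of the secreted signals, *Bmp4* (chromosome 14, 46379524 to 46390599) was at 17.0 FPKM in KO-NTD embryos (bounds 14.3 to 19.8), 15.7 FPKM in KO-N embryos (bounds 13.0 to 18.3) and 13.6 FPKM in WT embryos. The bounds of the KO groups overlapped over most of their length. Over KO-N the log2 fold was 0.12 (95% interval -0.21 to 0.45), and that over WT was 0.32. *Wnt2*, a Wnt ligand gene of the allantois and of heart and lung mesoderm (chromosome 6, 17988940 to 18030445), was at 10.9 FPKM in KO-NTD embryos (bounds 8.94 to 12.9). It was at 8.44 FPKM in KO-N embryos (bounds 6.80 to 10.1) and at 7.55 FPKM in WT embryos. Its log2 fold change over KO-N, 0.37 with a 95% interval of -0.003 to 0.74, was just short of the fold used here, while that over WT was 0.53.

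The adhesion pair gave level values in the KO groups, and neither gene has a WT value. *Vcam1*, the cell adhesion molecule of the allantois (chromosome 3, 116110020 to 116129688), was at 4.73 FPKM in KO-NTD embryos, 4.73 FPKM in KO-N embryos and 4.15 FPKM in the Control column. The log2 fold change over KO-N was 0.001, with a 95% interval of -0.41 to 0.41. *Itga4*, the alpha 4 integrin that binds it (chromosome 2, 79255426 to 79428988), was at 2.85 FPKM in KO-NTD embryos, 2.93 FPKM in KO-N embryos and 2.86 FPKM in the Control column. The log2 fold of *Itga4* over KO-N was -0.04 (95% interval -0.40 to 0.33). Differences of the size seen for *Hand1* lie outside both of these intervals over KO-N, and differences up to about the fold of 0.4 lie within that of *Vcam1*. Over the Control column the log2 fold of *Vcam1* in KO-NTD embryos was 0.19 (95% interval -0.23 to 0.60), an interval wide enough to hold the *Hand1* difference. The partner chain of *Itga4*, encoded by *Itgb1*, was at 107 FPKM in KO-NTD embryos and 102 in KO-N embryos.

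*Postn*, which encodes the matrix protein periostin (chromosome 3, 54361107 to 54391041), was at 51.7 FPKM in KO-NTD embryos, 48.9 FPKM in KO-N embryos and 52.6 FPKM in the Control column. Over KO-N its log2 fold was 0.08 (95% interval -0.24 to 0.40). *Ahnak*, which encodes a very large scaffold protein (chromosome 19, 8989284 to 9076926), was at 10.1 FPKM in KO-NTD embryos (bounds 8.28 to 11.9), 8.08 FPKM in KO-N embryos (bounds 6.62 to 9.53) and 9.37 FPKM in the Control column. Its log2 fold change over KO-N was 0.32 (95% interval -0.04 to 0.67). For this gene the KO-N value was the lowest of the 3, and over the Control column the fold of KO-NTD was 0.11.

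Against the column headed Control, the order of the genes was similar, but this comparison uses the same KO-NTD value as the one above. Here 4 of the 10 genes were higher in KO-NTD embryos past the fold, where 2.93% of all genes were. They were *Tbx4* (0.85), *Foxf1* (0.52), *Hand1* (0.46) and *Wnt2* (0.43), and the bounds lay apart for *Tbx4*, *Foxf1* and *Hand1*, against 0.84% of all genes. Between KO-N embryos and the Control column, 0 of the 10 genes were higher past the fold (1.25% of all genes) and 0 were lower (1.5% of all genes). The 10 log2 folds of KO-N over Control ran from -0.21 for *Ahnak* to 0.18 for *Vcam1*. Over WT, 4 of the 6 genes with a value were higher in KO-NTD embryos past the fold. So were 34.3% of the 789 genes in that table, which holds only genes the authors listed as different, so the 6 genes are not a fair sample of the 10. For 5 of the 6 genes the Control value lay between the KO-N and WT values, and for *Hand1* it was above both. The KO-NTD values of that table are 0.143% to 0.154% above those of the table of all genes, so the tables were scaled separately, and the KO-N and WT levels set side by side above come from these separate tables.

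The levels of the 10 genes, which FPKM makes comparable per length, spanned the range from *Itga4* to *Postn*. In KO-NTD embryos *Postn* (51.7 FPKM) and *Hand1* (51.4 FPKM) were the highest and could not be told apart by their bounds. *Foxf1* came next and was apart from *Hand1*. *Foxf1*, *Bmp4*, *Pitx1*, *Wnt2* and *Ahnak* followed, each overlapping its neighbour in that order. *Tbx4* was apart from *Ahnak* and overlapped *Vcam1*, and *Itga4* was apart from *Vcam1* at the low end. In KO-N embryos *Tbx4* stood lower in the order, below *Vcam1* and above *Itga4*, with overlapping bounds on both sides, and *Foxf1* stood below *Bmp4*, also with overlapping bounds. In the Control column *Postn* and *Hand1* were apart, and *Tbx4* again lay between *Vcam1* and *Itga4* with overlapping bounds.

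Further genes of the allantois and extraembryonic mesoderm did not all differ in 1 direction. Of 16 such genes, all above 0.5 FPKM, 6 were higher and 1 was lower in KO-NTD embryos than in KO-N past the fold. Of all genes, 3.41% were higher and 3.77% lower. The median log2 fold change of the 16 genes was -0.002. Over WT, the 6 of them with a value were all higher in KO-NTD embryos, from 0.30 for *Tbx3* to 0.49 for *Spin2c*. Only genes the authors listed as different have such a value. The bounds lay apart for *Cdx4* and *Cdx2*, homeobox genes of the posterior embryo and the base of the allantois. *Cdx4* was at 17.6 FPKM in KO-NTD embryos, 8.80 in KO-N and 13.8 in WT (0.99 over KO-N). *Cdx2* was at 14.9 FPKM in KO-NTD embryos, 7.93 in KO-N and 11.1 in WT (0.90 over KO-N). In contrast to *Tbx4*, both were below the Control column in KO-N embryos past the fold, with log2 folds of -0.69 for *Cdx4* and -0.50 for *Cdx2*. *Spin2c* (0.54), *Bmp5* (0.41), *Pmp22* (0.40) and *Hoxa13* (0.42) were higher past the fold with overlapping bounds. *Hoxa11*, at 1.29 FPKM in KO-NTD embryos and 1.76 in KO-N embryos, was lower past the fold (-0.42), with overlapping bounds.

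Apart from *Bmp4*, which was itself not past the fold, few genes of the Bmp pathway were past it, a share near that of all genes. Of 22 genes of ligands, receptors, Smads and inhibitors, 1 was higher past the fold in KO-NTD embryos than in KO-N, the ligand gene *Bmp5*, and 0 were lower, beside 3.41% and 3.77% of all genes, and their median log2 fold was 0.01. Over WT, the 4 of these genes with a value were all higher in KO-NTD embryos, *Bmp5* (0.49) and *Bmp2* (0.43) past the fold and *Smad6* (0.32) and *Fst* (0.31) not. The ligand gene *Bmp2* was at 6.95 FPKM in KO-NTD embryos and 5.28 in KO-N embryos (0.39, 95% interval 0.04 to 0.74). The receptor gene *Bmpr1b* was at 2.08 FPKM in KO-NTD embryos and 2.70 in KO-N embryos (-0.36, 95% interval -0.80 to 0.07). Among the 8 genes listed that Bmp signalling is known to induce, 0 were past the fold in either direction. Their log2 folds ran from -0.08 for *Id4* to 0.24 for *Gata2*, with *Id1* at 80.5 FPKM in KO-NTD embryos and 77.7 in KO-N embryos.

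**Figure D3:**
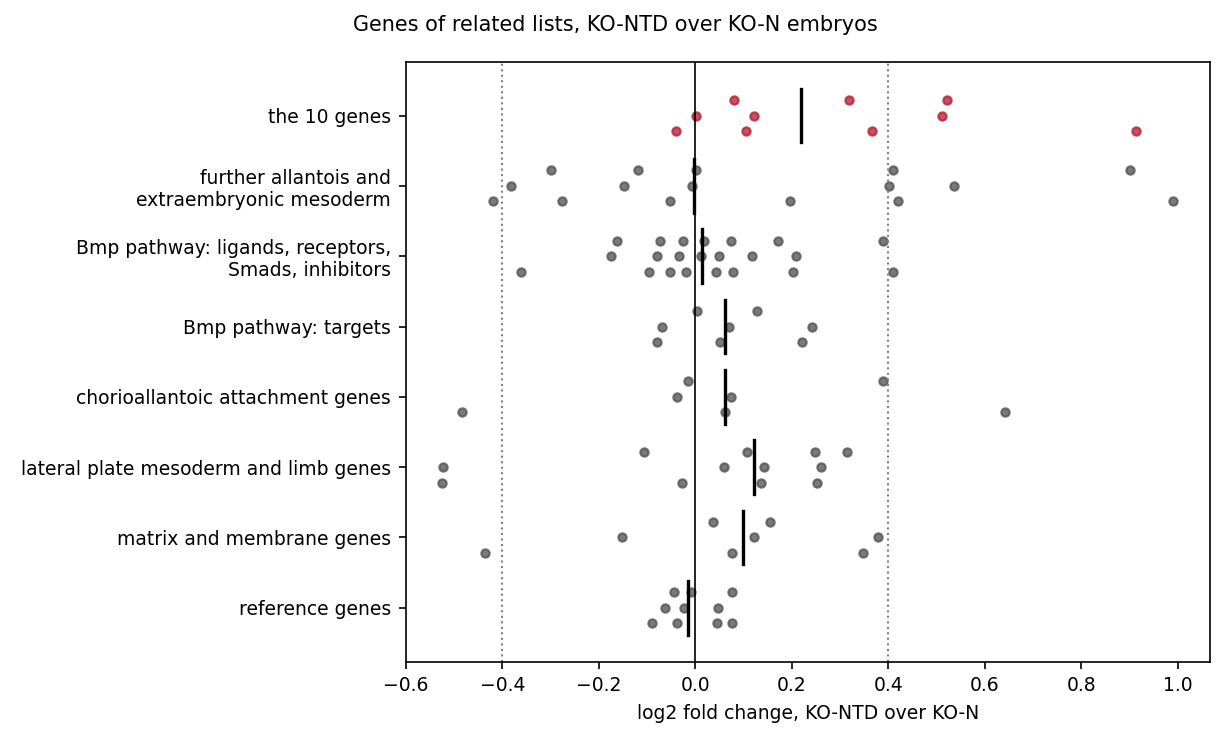
Log2 fold, KO-NTD embryos over KO-N, for the 10 genes (red) and for genes of related lists (dark grey) averaging 0.5 FPKM or more over the KO groups. Each point is a gene, black bars are list medians and dotted lines stand at -0.4 and 0.4. The median of the 10 genes is 0.22 and that of the 10 reference genes -0.02.

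Of 9 genes listed for attachment between chorion and allantois, 7 were above 0.5 FPKM, and whether each acts in attachment was not examined. The gap junction gene *Gjb2* was higher past the fold (0.64, 1.16 FPKM in KO-NTD embryos and 0.705 in KO-N embryos) and the Wnt ligand gene *Wnt7b*, which acts in the chorion, was lower (-0.48, 3.42 FPKM in KO-NTD embryos and 4.82 in KO-N embryos), both with overlapping bounds. Fibronectin (*Fn1*), a matrix ligand of alpha 4 integrin, was at 120 FPKM in KO-NTD embryos and 91.5 in KO-N embryos (0.39, 95% interval 0.05 to 0.73). Among the 12 lateral plate and limb genes, 0 were higher past the fold in KO-NTD embryos than in KO-N and 2 were lower, *Wt1* (-0.52) and *Prrx1* (-0.52), the second with bounds apart. *Hand2*, the close relative of *Hand1*, was at 19.1 FPKM in KO-NTD embryos and 18.4 in KO-N embryos (0.06), and *Foxf2*, the close relative of *Foxf1*, was at 3.97 FPKM in KO-NTD embryos and 4.28 in KO-N embryos (-0.11). The forelimb counterpart of *Tbx4*, *Tbx5*, was at 4.91 FPKM in KO-NTD embryos and 5.01 in KO-N embryos (-0.03). Of 8 matrix and membrane genes measured beside *Postn* and *Ahnak*, 0 were higher and 1 was lower past the fold, the lysyl oxidase gene *Lox* (-0.44). The annexin partner gene *S100a10* was at 52.0 FPKM in KO-NTD embryos and 39.9 in KO-N embryos (0.38).

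Markers of other tissues also differed between the KO groups. All 11 visceral endoderm markers, genes of the epithelium of the yolk sac, were higher in KO-NTD embryos than in KO-N with bounds apart, and their summed level was 147 FPKM in KO-NTD embryos, 27.9 FPKM in KO-N embryos and 66.0 FPKM in the Control column. *Apoa1*, for example, was at 21.4 FPKM in KO-NTD embryos, 1.91 FPKM in KO-N embryos, 9.14 FPKM in WT embryos and 7.88 FPKM in the Control column. In KO-N embryos 10 of the 11 were below the Control column past the fold, with a median log2 fold of -1.50. The 10 genes listed for the allantois and extraembryonic mesoderm had a median of 0.02 in that comparison. Their summed level was 191 FPKM in KO-NTD embryos, 156 FPKM in KO-N embryos and 160 FPKM in the Control column. In a bulk sample, more cells of a type and more RNA per cell cannot be told apart, and the part of visceral endoderm tissue in the values of *Tbx4*, *Hand1* and *Foxf1* was not tested.

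**Figure D4:**
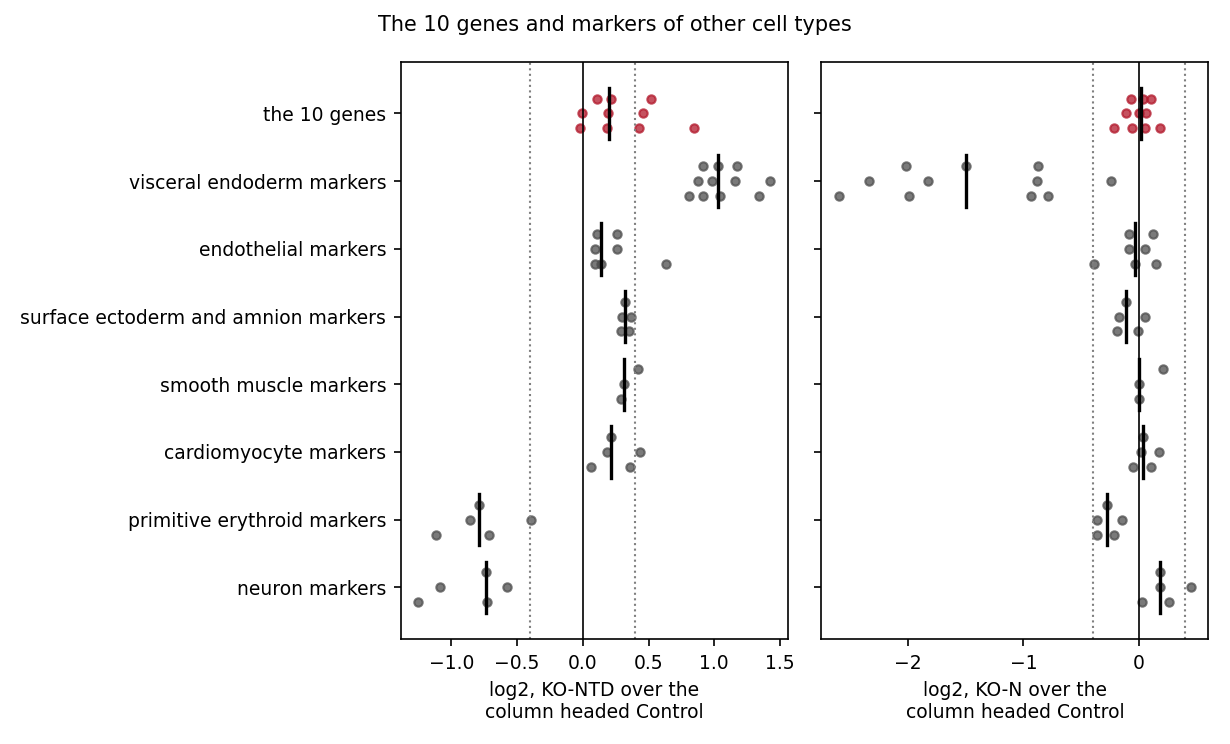
Log2 fold change over the column headed Control of KO-NTD embryos (left) and KO-N embryos (right), for the 10 genes (red) and for markers of other cell types (dark grey) averaging 0.5 FPKM or more over the KO groups. Each point is a gene, black bars are medians and dotted lines stand at -0.4 and 0.4. Visceral endoderm markers have a median of 1.03 on the left and -1.50 on the right, while the 10 genes have 0.20 and 0.02.

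Among 5 markers of surface ectoderm and amnion, 3 were higher past the fold in KO-NTD embryos than in KO-N, and the keratin genes *Krt8* (0.54) and *Krt18* (0.53) had bounds apart. Their summed level was 250 FPKM in KO-NTD, 178 FPKM in KO-N embryos and 196 FPKM in the Control column. Of 7 endothelial markers, 1 was higher, the early endothelial transcription factor gene *Etv2*, at 4.85 FPKM in KO-NTD embryos and 2.34 in KO-N embryos (1.02). *Hand1* and *Tbx20* are also expressed in the heart, and of 5 cardiomyocyte markers 0 were past the fold over KO-N, with a median of 0.17 and 5 above 0. The 3 smooth muscle markers above 0.5 FPKM had a median of 0.28, with 3 above 0 and 0 past the fold over KO-N. Over the Control column, 1 marker of each was past the fold, *Nkx2-5* (0.43) of the heart and *Tagln* (0.42) of smooth muscle. Over WT, *Nkx2-5* (0.63), *Myl7* (0.45), *Tagln* (0.63) and *Acta2* (0.43) were higher in KO-NTD embryos past the fold, while *Actc1* (0.36) and *Tnnt2* (0.34) were not past it. All 5 surface ectoderm and amnion markers were also past it over WT, from 0.41 for *Epcam* to 0.47 for *Krt8*, beside 0.63 for *Hand1*. Only genes the authors listed as different have a WT value, and 34.3% of those were higher past the fold. Of 8 trophoblast markers, 3 were above 0.5 FPKM, *Tpbpa* was at 0 in both KO groups, and *Plac1* was at 8.94 FPKM in KO-NTD embryos and 5.07 in KO-N embryos (0.81) with overlapping bounds. The other 2 above 0.5 FPKM were lower past the fold, also with overlapping bounds, *Prl3d1* (-0.58) and *Prl3b1* (-0.64). Of 4 decidua markers, *Prl3c1* was at 0 in both KO groups and the 3 above 0.5 FPKM all had log2 folds under 0, with *Prl8a2* lower past the fold (-0.88, 0.533 FPKM in KO-NTD embryos and 1.07 in KO-N embryos) and overlapping bounds. The summed level of the trophoblast markers was 11.7 FPKM in KO-NTD embryos, 8.32 in KO-N and 8.83 in the Control column. That of the decidua markers was 32.2 FPKM in KO-NTD embryos, 35.8 in KO-N and 34.9 in the Control column. Most of the decidua sum came from *Lum*, at 27.8 FPKM in KO-NTD embryos, 30.3 in KO-N and 29.5 in the Control column. *Dcn* came next, at 3.88 FPKM in KO-NTD embryos, 4.39 in KO-N and 4.28 in the Control column. All 5 neuron markers were lower in KO-NTD embryos than in KO-N with bounds apart, as were 2 of 5 primitive erythroid markers. Neuron markers summed to 18.4 FPKM in KO-NTD embryos, 33.5 in KO-N and 29.5 in the Control column, and erythroid markers to 3026 FPKM in KO-NTD embryos, 4634 in KO-N and 5513 in the Control column. What part these tissues have in the levels of the 10 genes was not tested.

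Reads of neighbouring or overlapping genes could enter some of these values, since the sources used here do not say whether strand was used in counting. In the GENCODE annotation of the same assembly, *Tbx4*, *Hand1*, *Wnt2*, *Postn* and *Ahnak* shared no exon bases with another gene. *Itga4* shared 8.04% of its exon bases with *Cerkl* on the other strand, and the position given for *Itga4* in the files reaches past the gene into *Cerkl*. *Foxf1* shared 4.06% of its exon bases with a small RNA gene and *Bmp4* 3.96% with a gene on the other strand. *Pitx1* shared at most 6.21% with any 1 gene, an antisense gene, and *Vcam1* 0.69%.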

How the data were processed

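Poly-A RNA of 9 samples, 3 for each of KO-NTD, KO-N and WT, was sequenced on a stranded protocol with single-end reads. Per the paper's methods and the submitters' processing notes, the authors used TopHat2 0.7 for mapping to mm10 and Cufflinks 2.2.1 for FPKM. Which annotation defined the genes was not given in the sources used here. Deposited FPKM are 1 value a group, and the authors' confidence bounds, also in FPKM, accompany them in the table of all genes. Whether these bounds include the spread between pools was not stated. The authors' comparison tables also hold fold changes, test values, p-values and q-values, none of which were used. Only their FPKM columns were read, for WT.

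The table has 24357 rows, of which 27 carry a date in place of a symbol and were not used. Folds were taken on log2(FPKM + 0.1), which understates those of low genes. Each bound was taken to lie 2 standard deviations from its value, which gave the standard error of a log2 fold, and 95% intervals span 1.96 of these errors on each side. The background was every gene averaging 0.5 FPKM or more over the KO groups. With 1 value a group no p-value was computed. The rule for named genes took all 10 members, *Scarb1*, at most 6 genes of each list past the fold of 0.4 with bounds apart, and genes named for a role beside a member. Other genes past the fold, *Fendrr*, the Y-linked genes and the motifs were named after the values were seen. The members and lists were chosen with earlier results of these data known. *Ahnak2*, a listed gene, was not analysed here. Folds, intervals and bounds were run on simulated data whose noise was drawn from the authors' bounds. Such a run checks the calculation and cannot show whether the bounds hold the spread between pools. The alternatives were pseudocounts of 0.01 and 1, no filter or a mean of 1 FPKM, fold sizes of 0.3, 0.58 and 1, centring on the median of all genes, and intervals in place of bounds. Python 3.11.15, pandas 2.3.3 and matplotlib 3.10.9 were used.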

Additional observations from a re-analysis of the deposited data

How the results depend on the processing

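The count of the 10 genes higher in KO-NTD embryos than in KO-N rests on the fold chosen. It was 3 at a log2 fold of 0.4, 5 at 0.3 (with *Wnt2* and *Ahnak*), 1 at 0.58 (*Tbx4*) and 0 at 1. It stayed at 3 with pseudocounts of 0.01 and 1, with no filter, with a mean of at least 1 FPKM and after centring, and 0 were lower under each. The 3 genes with bounds apart remained 3 with the groups rescaled to the same median, and 3 genes had a 95% interval above 0. The median of the 10 genes ran from 0.20 to 0.24 over these settings. Over all genes, 463 were higher and 512 lower. With a pseudocount of 1 these were 272 and 269, and with no filter 1080 and 1051. At a fold of 0.3 they were 710 and 874, at 0.58 they were 261 and 255, and at 1 they were 148 and 97. Centring gave 512 and 461, which turns the split between higher and lower. All 48 values of single genes under an alternative kept their direction. No paired analysis was possible because the files hold 1 value a group, and leaving out single pools could not be done for the same reason. Folds of KO-N over WT were not run, since none of the 10 genes is in that table.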
